A study of Homo sapiens with 18 samples.

Results

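The expression of 32 genes of cholesterol and fatty acid synthesis was described in osteosarcoma (OS) Saos-2 cells grown in 5 ways. The genes were taken by name from the 50119 genes listed in the deposited table, and all 32 were found and passed the filter on low values in all 8 comparisons made. They comprised 7 genes of the mevalonate and isoprenoid steps, 12 genes of the steps from squalene to cholesterol, 3 genes of sterol sensing, 2 genes of cholesterol transport, and 8 genes of fatty acid synthesis and desaturation. The choice used no measured value, but it was made with earlier results of these data known.

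The cell line Saos-2, which the labels spell Soas-2 and give as WT, was established from a human OS. Poly(A) RNA of 18 libraries was sequenced, 3 in each of 6 groups. D-2 were cells on plastic, D-3 were cells mixed into Matrigel, and DP-3 were cells printed in a bioink of methacrylated gelatin and alginate. These groups were sampled after 14 days of culture, and a further group of printed tissue, DP-3 day 1, after 1 day. Fresh isolated tumor tissue (FIT) came from tumors that Saos-2 cells in Matrigel had formed under the skin of female BALB/c nude mice, which were 4 weeks old at implantation and carried the tumors for 2 weeks. Isolated tissue (IT) was the same kind of tumor, cut into pieces and cultured on Matrigel for 14 days. No gene was altered and no drug was given in any group, and the cultured groups grew in medium with serum. IT and FIT were cut from excised tumors of the same animals, but the labels do not tie an IT library to a FIT library. Both could hold cells of the mouse host, and in bulk RNA fewer cells of a type and less RNA per cell cannot be told apart. The labels do not say that replicates came from separate cultures or animals, so p-values measure only the spread between these libraries, which may be technical.

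Cells make cholesterol and fatty acids from cytosolic acetyl-CoA. In the mevalonate pathway it is built into isoprenoids, then squalene, and then through a long series of reductions and demethylations into cholesterol, while acetyl-CoA carboxylase and fatty acid synthase turn it into saturated fatty acids that are later elongated and desaturated. Many of these genes are targets of the SREBP transcription factors, which leave the endoplasmic reticulum with their escort SCAP when membrane sterol is low and are held back there by INSIG proteins when it is high. Cells in culture can also take sterol and fatty acid from serum, and in tumors both routes have been studied widely.

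Levels are given as FPKM, the fragments of a gene relative to its length and to the library's total. Fold changes come from edgeR's quasi-likelihood test on the deposited estimated counts, with p-values adjusted over all genes tested by the Benjamini-Hochberg method. A differentially expressed gene (DEG) had an adjusted p below 0.05 and a change of at least 2-fold. The total estimated count was 23721666 in FIT replicate 3 and 50327345 to 79082786 in the other 17 libraries. The 3 libraries of DP-3 day 1 stood apart in the number of genes with a count, at 34593 to 34919 against 22915 to 29631 in the other groups.

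Marker genes differed between the groups beside the members. Of 8 osteoblast lineage markers, the defining genes ALPL, SP7 and IBSP were at most 0.148, 0.0949 and 0.0802 FPKM in any library. ALPL is the alkaline phosphatase for which Saos-2 cells are known, so the markers go against the labelled line, whose identity was not tested, and Saos-2 is used here as the labels' name. The whole list summed to 23.9 to 25.9 FPKM in FIT and 5.12 to 16.3 elsewhere. COL1A1, a bone and fibroblast collagen, had a mean of 20.3 FPKM in FIT and 1.89 to 6.38 in the other groups and was a DEG in 4 of 5 comparisons with FIT. The summed FPKM of 6 endothelial markers was 3.84 to 6.08 in FIT, 4.31 to 6.56 in IT and 1.17 to 2.35 in the other groups. PECAM1 and CDH5 were lower DEGs in 4 comparisons each and TEK in 3. The other endothelial markers, EMCN, VWF and KDR, were at most 0.477, 0.169 and 0.0502 FPKM in any library. Their means went the other way, being higher in D-2, D-3, DP-3 and DP-3 day 1 than in FIT. The 6 keratinocyte markers summed to 21.8 to 41.8 FPKM in FIT and 16.4 to 27.7 elsewhere, most of it KRT10, which was no DEG against FIT. KRT5 was lower in 4 comparisons and KRT14 in 3. The 9 skeletal muscle markers summed to 1.03 to 5.67 FPKM in FIT, with MYH2 at 3.61 FPKM in its highest library, and to at most 0.730 elsewhere. The 8 adipocyte markers, fat cells being a rich source of lipid synthesis transcripts, summed to 0.663 to 1.16 FPKM in FIT, 0.835 to 1.41 in IT, 0.256 to 0.427 in D-2, 1.21 to 8.85 in DP-3, 1.47 to 2.68 in DP-3 day 1 and 4.06 to 7.43 in D-3. ADIPOQ, LEP and RETN were at most 0.0181, 0.0369 and 0.0599 FPKM in any library, and FABP4 was a higher DEG in 3 comparisons with FIT. PLIN4, named after its values were seen, was a higher DEG in D-3 and a lower one in D-2. The 8 macrophage markers summed to 25.3 to 61.8 FPKM in FIT and 47.6 to 119.8 elsewhere, most of it CD68, with C1QA and C1QB at 0 in 16 libraries each. The 5 fibroblast markers summed to 17.4 to 29.4 FPKM in FIT and 5.84 to 18.5 elsewhere, with DCN at most 0.0858. Their part in the results below was not tested.

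Among the 6 groups, 16 of the 32 members differed (adjusted p below 0.05 in edgeR's test over all 18 libraries; 50% of the members, against 37.3% of the 25977 genes tested). In order of p these were SCARB1, ACSS2, ACACA, ELOVL6, ACLY, TM7SF2, SC5D, SCD, LBR, HSD17B7, NSDHL, FASN, DHCR7, FADS1, EBP and MSMO1. The count was 29 without IT replicate 3 and 13 to 20 when any other library was left out. The share of all genes was not computed for these fits, so their counts cannot be read as particular to the members. Without the day 1 group the count was 13, where 32% of all genes passed.

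The order of the group means was read for each member. IT had the highest mean FPKM for 16 members, D-2, DP-3 and DP-3 day 1 for 5 each, FIT for 1 (TM7SF2) and D-3 for none. The lowest mean was in D-3 for 16 members, in FIT for 14 and in D-2 for 2. The 3 IT libraries did not agree, and replicate 2 was the highest of all 18 libraries for 20 members whereas replicate 3 was the lowest for 8. FIT replicate 3, the shallowest library, was the lowest of 18 for 14 members. No share of all genes is given for highest and lowest means and libraries, so these counts cannot be read as particular to the members. The median coefficient of variation (CV) of the members was 40.8% in IT and 28.2% in FIT, against 17.2% and 14.1% over 9670 genes. In D-2 and DP-3 day 1 it was 6.54% and 4.33%, against 6.47% and 6.34% over the same genes.

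**Figure D1:**
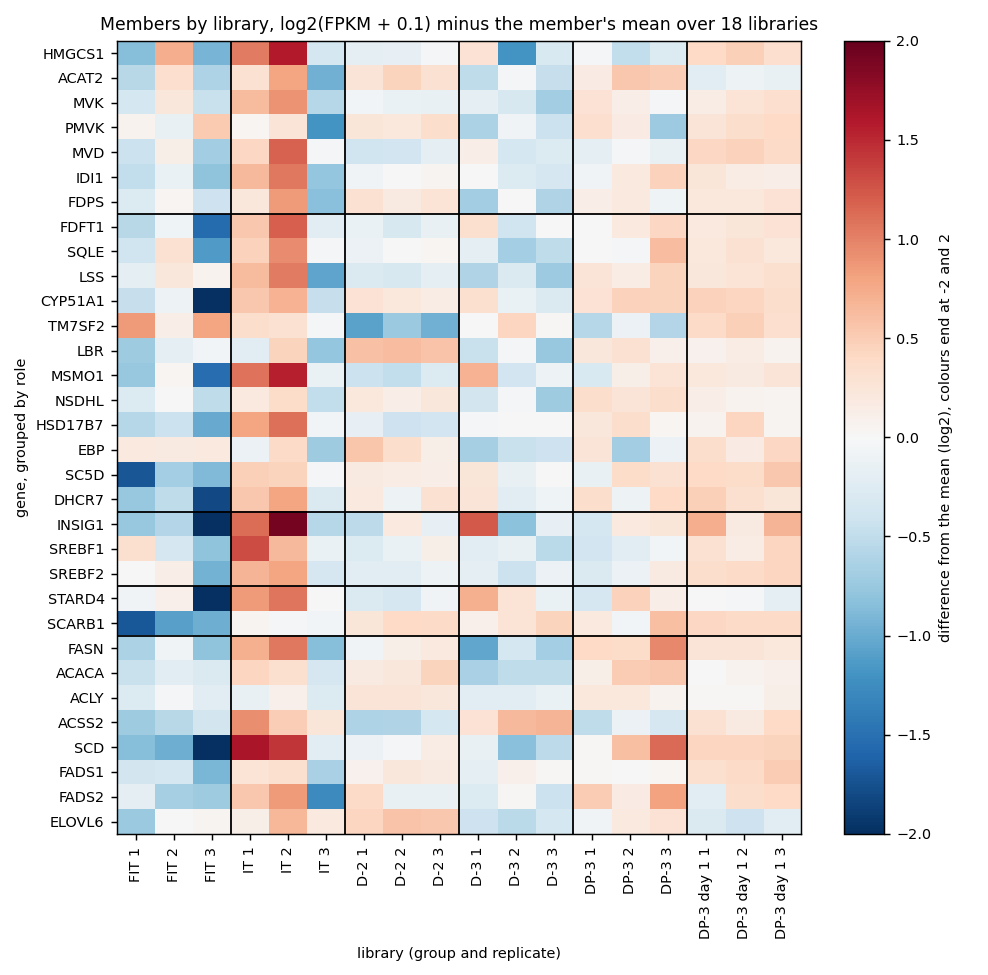
Each row is a member and each column a library, with the colour giving log2(FPKM + 0.1) minus the member's mean over the 18 libraries; black lines separate the groups and the roles. IT replicates 1 and 2 are red in most rows, IT replicate 3 and FIT replicate 3 are blue in most rows, and the 3 libraries of DP-3 day 1 look alike.

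Sterol sensing was read from INSIG1, SREBF1 and SREBF2. INSIG1 (ENSG00000186480, chromosome 7, 155297776 to 155310233) encodes a retention protein that is itself a well-known SREBP target. It was 7.59, 8.54 and 2.16 FPKM in FIT and 27.9, 48.9 and 8.62 in IT. The D-2 values were 8.90, 14.7 and 11.5, those of DP-3 10.01, 14.8 and 15.2, those of DP-3 day 1 21.4, 14.6 and 20.6, and those of D-3 30.2, 7.21 and 11.4. Every IT, D-2, DP-3 and DP-3 day 1 library lay above all FIT libraries, while 1 D-3 library fell within their range. The log2 fold changes from FIT ran from 1.07 ± 0.47 in D-2 to 2.21 ± 0.69 (SE) in IT, and none passed the threshold (adjusted p between 0.0906 and 0.271).

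SREBF2 (ENSG00000198911, chromosome 22, 41833079 to 41907307), which encodes the SREBP that mainly drives sterol genes, was 24.2, 26.3 and 12.4 FPKM in FIT and 38.5, 41.7 and 19.0 in IT. It was 20.6, 20.4 and 22.4 in D-2, 19.6, 22.2 and 27.3 in DP-3, 21.1, 17.8 and 22.2 in D-3, and 30.8, 31.3 and 32.3 in DP-3 day 1. DP-3 day 1 lay above FIT, the other cultured groups overlapped it, and the log2 fold changes from FIT lay between -0.12 and 0.65. SREBF1 (ENSG00000072310, chromosome 17, 17810399 to 17837011), whose product acts more on fatty acid genes, was 8.36, 5.28 and 3.77 FPKM in FIT and 16.6, 10.5 and 6.10 in IT. It was 5.53, 6.10 and 7.24 in D-2, 5.10, 5.68 and 6.41 in DP-3, 5.67, 5.99 and 4.59 in D-3, and 8.29, 7.40 and 9.01 in DP-3 day 1. Its only change past the threshold was a fall of D-3 below D-2 (log2 fold change -0.47 ± 0.15, adjusted p = 0.049). SREBF1 overlaps RAI1 and SREBF2 overlaps SREBF2-AS1, each on the other strand. The library kit marks strand, but whether the counting used it is not stated, so reads of overlapping genes may not be told apart.

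The other genes of SREBP processing were taken from a list of 4 (SCAP, INSIG2, MBTPS1 and MBTPS2). SCAP, the escort, stayed between 10.9 and 16.0 FPKM in the 18 libraries and was no DEG in any comparison. INSIG2, which is regulated apart from INSIG1, had a mean of 2.03 ± 0.935 FPKM in FIT and 5.73 ± 0.783 in D-3 (SD, n = 3). INSIG2 was the 1 gene of the list that was a DEG, higher in D-3 than in FIT (log2 fold change 1.46 ± 0.35, adjusted p = 0.0432) and than in D-2 (1.19 ± 0.27, 0.0148), and lower in DP-3 than in D-3 (-1.66 ± 0.26, 0.0109) and than in DP-3 day 1 (-1.01 ± 0.24, 0.0239).

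The bases before the transcription start of SREBF2, SCD and INSIG1 are shown because SREBF2 was the 1 member of the 27 searched that had the sterol response letters, and SCD and INSIG1 had the largest changes from FIT in IT. This choice was made after their values were seen. The windows are RefSeq's, on GRCh38.p14 and the + strand, each the 250 bases before RefSeq's annotated start, 5′ to 3′. They are at chr22:41832855-41833104 for SREBF2, chr10:100346983-100347232 for SCD and chr7:155297628-155297877 for INSIG1. The deposited genes SREBF2 and INSIG1 start before these windows end, at 41833079 and 155297776. The last bases of both windows, with the CACGTG of INSIG1, thus lie inside the genes as deposited. Capitals mark 9 letters of the sterol response form TCACNCCAC, 5 letters of the NF-Y box CCAAT on either strand, and 6 letters of the E-box CACGTG.
SREBF2: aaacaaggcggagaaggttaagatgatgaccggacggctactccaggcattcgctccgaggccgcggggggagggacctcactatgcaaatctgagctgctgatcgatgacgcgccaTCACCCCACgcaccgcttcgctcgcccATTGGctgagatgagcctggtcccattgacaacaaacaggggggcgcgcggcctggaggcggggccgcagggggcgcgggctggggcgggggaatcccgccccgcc
SCD: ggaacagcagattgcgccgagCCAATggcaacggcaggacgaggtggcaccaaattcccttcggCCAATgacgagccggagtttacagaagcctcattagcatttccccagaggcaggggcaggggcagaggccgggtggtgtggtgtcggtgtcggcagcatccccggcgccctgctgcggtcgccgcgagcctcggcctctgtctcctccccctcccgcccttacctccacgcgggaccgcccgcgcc
INSIG1: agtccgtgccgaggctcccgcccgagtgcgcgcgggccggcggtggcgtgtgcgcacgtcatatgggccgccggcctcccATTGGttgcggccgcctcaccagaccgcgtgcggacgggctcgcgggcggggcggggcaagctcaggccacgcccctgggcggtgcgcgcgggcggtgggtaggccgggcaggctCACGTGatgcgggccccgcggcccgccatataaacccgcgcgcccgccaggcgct

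RefSeq promoter windows of 300 bases, 250 before and 50 after each annotated start, were found for 27 of the 32 members, the others being ACAT2, FDFT1, SQLE, SCARB1 and FASN. A gene could have several windows and counted once if any of them held the letters, read on both strands. The form TCACNCCAC was in 1 of the 27 members (SREBF2, starting 133 bases before the start), or 3.7%, and in 1.39% of 27305 genes. CCAAT was in 77.8% of the members and 39.7% of all genes. The Sp1 box GGGCGG was in 92.6% of the members and 48.3% of all genes, and CACGTG in 11.1% and 8.77%. These are matches of letters, not binding, and NF-Y and Sp1 boxes are also common before other housekeeping genes.

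In cells on plastic the fatty acid genes and some sterol genes stood above the tumor. In D-2 against FIT, 14 members were higher with an adjusted p below 0.05 (16% of all 19513 genes tested) and 1 was lower (14.9%). All D-2 libraries were above all FIT libraries for 16 members (18.9% of all genes) and below them for TM7SF2 (31%). The DEGs were SCARB1, SCD, SC5D, DHCR7 and LBR, which were higher (3.83% of all genes), and TM7SF2, which was lower (10.8%). All but ACSS2 of the 8 fatty acid genes were higher with an adjusted p below 0.05, as against 2 of 7 mevalonate genes (IDI1 and FDPS) and 4 of 12 genes after squalene. The median log2 fold change of the members was 0.58, against -0.09 over all genes. Left out singly, FIT replicate 1 lowered the count of DEGs to 3. DHCR7 and SCD each lost their call in 5 of the 6 such fits (adjusted p up to 0.0838 and 0.0892). In limma on log2(FPKM + 1), TM7SF2, LBR and SC5D were under 2-fold. Of 8 proliferation markers 7 were also higher in D-2 than in FIT, and their part was not tested.

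TM7SF2 and LBR encode reductases for the same sterol step, LBR being also a nuclear envelope protein, and they moved in opposite directions in D-2. TM7SF2 (ENSG00000149809, chromosome 11, 65111845 to 65116384) was 2.86, 1.70 and 2.73 FPKM in FIT and 0.677, 0.877 and 0.744 in D-2. It was 1.0, 1.41 and 0.985 in DP-3, 1.53, 2.11 and 1.56 in D-3, 2.04, 2.18 and 1.95 in DP-3 day 1, and 2.00, 1.92 and 1.497 in IT. All D-2 libraries were below the 15 others, and the log2 fold change of D-2 from FIT was -1.49 ± 0.26 (adjusted p = 0.00683).
LBR (ENSG00000143815, chromosome 1, 225401502 to 225428855) was 6.85, 9.98 and 10.9 FPKM in FIT and 17.0, 17.4 and 16.9 in D-2. It was 13.3, 14.1 and 12.1 in DP-3, 8.26, 11.1 and 6.66 in D-3, 12.0, 12.6 and 11.8 in DP-3 day 1, and 9.76, 15.5 and 6.57 in IT. The D-2 libraries were above all 15 others, with a log2 fold change from FIT of 1.04 ± 0.18 (adjusted p = 0.00717). Without FIT replicate 1 the change of LBR was 0.82, under 2-fold.

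SCARB1, which encodes a receptor for high density lipoprotein through which cells take up cholesterol esters, was the member with the smallest p among the groups. SCARB1 (ENSG00000073060, chromosome 12, 124776856 to 124882668) was 1.75, 2.71 and 2.93 FPKM in FIT. It was 6.94, 7.79 and 7.64 in D-2, 6.71, 5.67 and 8.98 in DP-3, 6.27, 7.15 and 8.00 in D-3, 7.87, 7.66 and 7.68 in DP-3 day 1, and 6.12, 5.78 and 5.64 in IT. The lowest of the 15 cultured libraries was above the highest FIT library, and the cultured groups lay close together. The change from FIT was 3.35-fold in D-2 (log2 fold change 1.75 ± 0.21, adjusted p = 0.00259) and 3.16-fold in DP-3 (1.66 ± 0.28, 0.0197). It was 2.90-fold in DP-3 day 1 (1.54 ± 0.20, 0.00705) and 2.77-fold in D-3 (1.47 ± 0.23, 0.0115). In IT it was 1.24 ± 0.23 on the log2 scale (adjusted p = 0.16). The 5 comparisons share the FIT libraries. The call in D-3 was lost without D-3 replicate 3 (adjusted p = 0.0619), and that in DP-3 in 4 of 6 such fits. STARD4, a sterol carrier, was 2.79, 3.16 and 0.615 FPKM in FIT and between 2.30 and 6.27 in the cultures, with no call in any comparison.

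SC5D, a sterol desaturase near the end of the pathway, was also above FIT in all cultured libraries. SC5D (ENSG00000109929, chromosome 11, 121292681 to 121308630) was 0.709, 1.54 and 1.33 FPKM in FIT. It was 2.87, 2.83 and 2.80 in D-2, 2.29, 3.30 and 3.14 in DP-3, 3.01, 2.27 and 2.55 in D-3, 3.38, 3.30 and 3.74 in DP-3 day 1, and 3.58, 3.49 and 2.45 in IT. No cultured group overlapped FIT, and the DP-3 day 1 libraries lay above those of D-2 and D-3. SC5D was a DEG in D-2 (log2 fold change 1.39 ± 0.29, adjusted p = 0.0122), DP-3 (1.40 ± 0.32, 0.0399) and DP-3 day 1 (1.42 ± 0.29, 0.0271), and not in D-3 (1.06 ± 0.31, 0.0737) or IT (1.39 ± 0.33, 0.208). The call in DP-3 was lost whichever library was left out, and that in DP-3 day 1 without any 1 of its own libraries.

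SCD, the stearoyl-CoA desaturase that makes monounsaturated fatty acids, reached the highest FPKM of any member in a library. SCD (ENSG00000099194, chromosome 10, 100347233 to 100364826) was 34.9, 32.2 and 10.6 FPKM in FIT. It was 58.2, 62.3 and 70.0 in D-2, 64.0, 96.2 and 138 in DP-3, 57.1, 35.5 and 44.0 in D-3, 85.6, 85.4 and 85.8 in DP-3 day 1, and 196, 170 and 54.6 in IT. Every cultured library was above every FIT library, and IT replicate 3 fell within the range of the D-3 libraries. SCD was a DEG in DP-3 (log2 fold change 2.08 ± 0.47, adjusted p = 0.0391), DP-3 day 1 (1.61 ± 0.40, 0.0496) and D-2 (1.44 ± 0.41, 0.0345). Each of these 3 calls was lost in 5 of the 6 fits that left out 1 library. HSD17B7 and DHCR7, late sterol enzymes, were the other members above FIT in all cultured libraries. HSD17B7 (ENSG00000132196, chromosome 1, 162790702 to 162812817) was 0.697, 0.779 and 0.490 FPKM in FIT, 1.96, 2.44 and 1.04 in IT, 0.961, 0.795 and 0.806 in D-2, 1.29, 1.41 and 1.11 in DP-3, 1.05, 1.09 and 1.08 in D-3, and 1.15, 1.51 and 1.13 in DP-3 day 1. It passed in no comparison with FIT, and a near-identical pseudogene makes its counts uncertain.

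**Figure D2:**
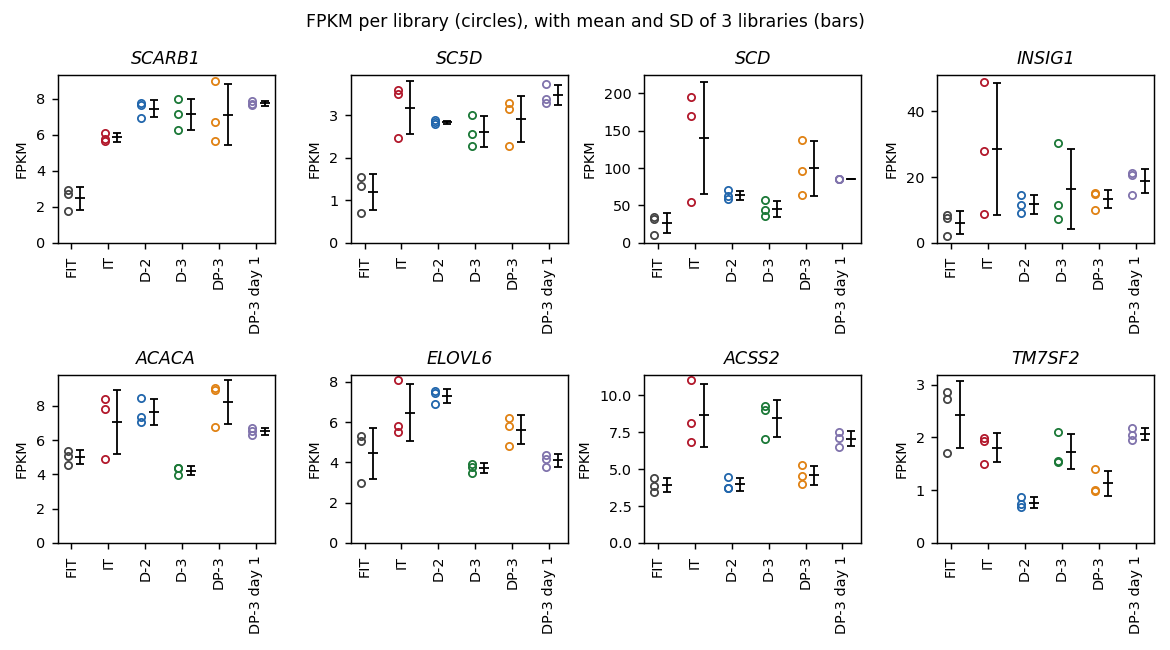
FPKM (linear axis from 0) of 8 members in the 6 groups, with a circle for each library and beside it the mean and SD of 3 libraries. SCARB1 and SC5D are above FIT in all cultured libraries, SCD and INSIG1 spread widely in IT, ACACA and ELOVL6 are low in D-3, ACSS2 is high in D-3 and IT, and TM7SF2 is lowest in D-2.

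In Matrigel few members differed from the tumor, and so did few of all genes (6.25% and 8.29%, adjusted p below 0.05 in edgeR's test). In D-3 against FIT, 2 members were higher with an adjusted p below 0.05 (5.11% of all 21676 genes tested) and none was lower (3.17%). Both were DEGs, where 6.45% of all genes were, 4.29% higher and 2.17% lower. All D-3 libraries were above all FIT libraries for 7 members (20.5% of all genes) and below them for EBP, LSS and ACACA (11.9%). The DEGs were SCARB1 and ACSS2. ACSS2 (ENSG00000131069, chromosome 20, 34872146 to 34927962) makes acetyl-CoA from acetate. It was 3.46, 3.85 and 4.39 FPKM in FIT and 7.02, 9.02 and 9.25 in D-3. It was 3.71, 3.73 and 4.45 in D-2, 3.97, 5.25 and 4.51 in DP-3, 7.09, 6.51 and 7.54 in DP-3 day 1, and 11.0, 8.13 and 6.81 in IT. D-3, DP-3 day 1 and IT formed a high range from 6.51 to 11.0 that no library of FIT, D-2 or DP-3 reached. The log2 fold change of D-3 from FIT was 1.05 ± 0.18 (adjusted p = 0.0161), and the call was lost without D-3 replicate 3 or FIT replicate 1 or 2 and, at 0.94, in limma on log2(FPKM + 1). ACSS2 overlaps GGT7 on the other strand. The median change of the members in D-3 was -0.10 on the log2 scale, against 0.02 over all genes.

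In printed tissue at 14 days 4 of the 8 fatty acid genes, SCD, FADS2, FASN and ACACA, were higher than in the tumor with an adjusted p below 0.05. In DP-3 against FIT, 6 members were higher with an adjusted p below 0.05 (4.21% of all 20039 genes tested), and 5 of these were DEGs (1.66%). The DEGs were SC5D, SCARB1, SCD, FADS2 (a desaturase of polyunsaturated fatty acids) and FASN, and ACACA was the further member. None was lower (4.19%). Of the 32 members 16 had all DP-3 libraries above all FIT libraries (12.5% of all genes). FASN (ENSG00000169710, chromosome 17, 82078338 to 82098294), the fatty acid synthase, was 11.8, 17.6 and 10.5 FPKM in FIT, 24.3, 23.7 and 35.9 in DP-3, 17.5, 20.03 and 21.1 in D-2, 22.2, 22.1 and 21.3 in DP-3 day 1, 8.94, 14.5 and 11.4 in D-3, and 30.1, 38.4 and 10.2 in IT. Its DP-3 libraries were above those of FIT, D-2, D-3 and DP-3 day 1, with a log2 fold change from FIT of 1.20 ± 0.28 (adjusted p = 0.0411). Left out singly, each of the 6 libraries lowered the count of DEGs, to 0 without DP-3 replicate 1, DP-3 replicate 3 or FIT replicate 1, to 1 without FIT replicate 2, to 2 without DP-3 replicate 2 and to 3 without FIT replicate 3. In limma on log2(FPKM + 1) SCARB1 and FASN kept their call. The median change was 0.67, against -0.06 over all genes.

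In DP-3 day 1 against FIT, 5 members were higher with an adjusted p below 0.05 (5.5% of all 21869 genes tested, and 10.1% in either direction), namely the DEGs SC5D, SCARB1 and SCD (5.03% in either direction, 2.89% higher) and ACSS2 and FADS1. None was lower (4.63%). Without any 1 of the 3 day 1 libraries the count of DEGs was 1. All day 1 libraries were above all FIT libraries for 21 members (22.6% of all genes), and the median change was 0.44, against 0.01.

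Cultured tumor pieces had the highest group mean for 16 of the 32 members, a count given without a share of all genes. Whether members were called against FIT differed between the tests. In IT against FIT, 29 of 32 members had a positive log2 fold change, with a median of 0.85 against 0.01 over all genes, and all IT libraries were above all FIT libraries for 8 members (11.1% of all genes) and below for none (9.49%). No member passed edgeR's test (0% of 21183 genes; smallest adjusted p among members 0.16). At an unadjusted p below 0.05, 11 members were higher, as were 7.18% of all genes. DESeq2 made 8 members higher DEGs (2.05% of all genes). One edgeR fit of all 18 libraries, in which IT and FIT share the spread of the other groups, made 9 higher DEGs (1.9%): FDFT1, MSMO1, HSD17B7, SC5D, DHCR7, INSIG1, SCARB1, ACSS2 and SCD. In that fit SCD had a log2 fold change of 2.44 ± 0.45 (adjusted p = 0.0062) and INSIG1 one of 2.22 ± 0.60 (0.0433). Without IT replicate 3 the same kind of fit made 14 DEGs (1.34%), and without FIT replicate 3 it made 6 (2.1%).

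IT replicates 1 and 2 were above replicate 3 for 31 of 32 members, the exception being ELOVL6, or 96.9% of the members against 43.6% of 14033 expressed genes. The median ratio to replicate 3 was 1.9 in replicate 1 and 2.28 in replicate 2. For 13 members (40.6%, against 1.09% of the expressed genes) both libraries were above every library of the other 5 groups. These were HMGCS1, MVK and IDI1 of the mevalonate steps, FDFT1, LSS, CYP51A1, MSMO1, HSD17B7 and DHCR7 of the sterol steps, SREBF1, SREBF2, STARD4 and SCD. The samples were not chosen by these values, but the split of the IT libraries was noticed in them, so it is given as a description. MSMO1, a sterol oxidase, was 47.6, 65.5 and 20.4 FPKM in IT and 13.1, 22.8 and 7.69 in FIT. HMGCS1, which makes the precursor of mevalonate, was 27.1, 39.7 and 10.3 in IT and 7.23, 21.8 and 6.88 in FIT. The ratio of replicate 2 to replicate 3 was 5.68 for INSIG1 and 1.02 for SCARB1, so the difference was not shared by all members. The summed FPKM of the proliferation markers was 264 and 267 in IT replicates 1 and 2 and 151 in replicate 3, of the fibroblast markers 15.6, 18.5 and 10.4, and of the macrophage markers 48.7, 49.5 and 70.1. Their part was not tested.

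**Figure D3:**
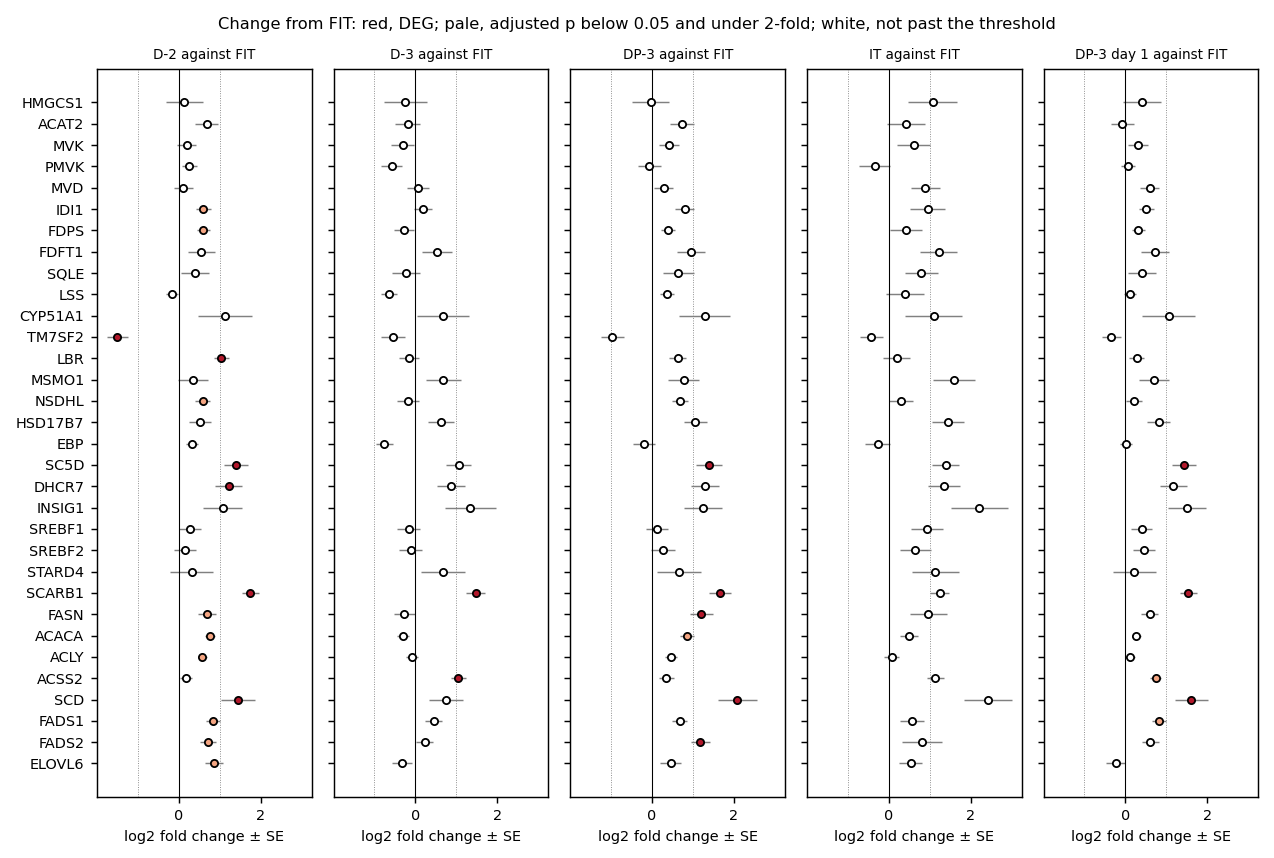
Log2 fold change from FIT with its SE (edgeR) for the 32 members in 5 comparisons that share the FIT libraries; dotted lines mark 2-fold. Most points in D-2, DP-3, IT and DP-3 day 1 lie right of 0, those in D-3 lie on both sides, and the IT points have wide errors and no call.

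In Matrigel 17 of the 32 members were lower than on plastic. In D-3 against D-2 these 17 passed with an adjusted p below 0.05 (16.3% of all 20231 genes tested were lower) and 2, TM7SF2 and ACSS2, were higher (19.2%). The lower members were 5 of 7 mevalonate genes (ACAT2, MVK, PMVK, IDI1 and FDPS), 5 of 12 genes after squalene (SQLE, LSS, LBR, NSDHL and EBP), SREBF1, and 6 of 8 fatty acid genes (FASN, ACACA, ACLY, SCD, FADS1 and ELOVL6). The DEGs were LBR, EBP, ELOVL6 and ACACA, all lower (3.95%), and none was higher (14.6%). All 4 kept their call in each fit that left out 1 library, and without D-3 replicate 2 the count was 8. On log2(FPKM + 1) none of the 4 reached 2-fold in limma, the changes being -0.72 to -0.93 with adjusted p of 0.00313 to 0.00866. In plain FPKM the D-2 mean over the D-3 mean was 1.98 for LBR, 1.96 for ELOVL6 and 1.83 for EBP. For ACACA the means were 7.64 and 4.23. The median change of all genes was 0.30 on the FPKM scale and 0.11 on the count scale, so the 2-fold calls depended on the scale. The median change of the members was -0.48, against 0.11 over all genes.

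ELOVL6 elongates saturated fatty acids of the length that fatty acid synthase releases. ELOVL6 (ENSG00000170522, chromosome 4, 110045846 to 110198653) was 6.88, 7.54 and 7.44 FPKM in D-2 and 3.77, 3.47 and 3.94 in D-3. It was 4.82, 5.80 and 6.22 in DP-3, 4.15, 3.77 and 4.38 in DP-3 day 1, 5.51, 8.09 and 5.82 in IT, and 2.98, 5.06 and 5.29 in FIT. The D-2 libraries were above all but 1 IT library, and D-3 did not overlap D-2, with a log2 fold change of -1.22 ± 0.11 (adjusted p = 0.00134). ACACA, the acetyl-CoA carboxylase that commits carbon to fatty acids, was likewise lower in D-3 than in D-2. ACACA (ENSG00000278540, chromosome 17, 37084992 to 37406836) was 7.07, 7.35 and 8.48 FPKM in D-2 and 3.94, 4.37 and 4.38 in D-3. It was 6.77, 8.94 and 9.06 in DP-3, 6.28, 6.55 and 6.72 in DP-3 day 1, 8.40, 7.82 and 4.91 in IT, and 4.56, 5.37 and 5.06 in FIT. The 3 D-3 libraries were the lowest of all 18, and the change from D-2 was -1.10 ± 0.11 (adjusted p = 0.00169).

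ACLY, which splits citrate into acetyl-CoA, changed less but with small spread. ACLY (ENSG00000131473, chromosome 17, 41866917 to 41930542) was 61.5, 61.3 and 60.4 FPKM in D-2, 59.7, 59.8 and 53.7 in DP-3, 44.0, 44.2 and 46.6 in D-3, 52.3, 52.5 and 55.9 in DP-3 day 1, 46.5, 55.2 and 42.3 in IT, and 42.6, 50.3 and 44.1 in FIT. D-2 was above all other libraries, and its log2 fold change to D-3 was -0.69 ± 0.09 (adjusted p = 0.0027). LBR, with the values given above, fell by 1.23 ± 0.18 on the log2 scale from D-2 to D-3 (adjusted p = 0.00391). EBP, a sterol isomerase, was 11.0, 9.59 and 8.12 FPKM in D-2 and 4.67, 5.43 and 5.60 in D-3, without overlap (-1.12 ± 0.17, 0.00403). ACSS2 rose where its partner ACLY fell, both being sources of acetyl-CoA (0.84 ± 0.15, 0.00681). Of the 8 proliferation markers 7 were also lower in D-3 than in D-2, with a summed FPKM of 396 to 448 in D-2 and 162 to 270 in D-3, and the part of proliferation was not tested.

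Printed tissue differed from Matrigel in the other direction. In DP-3 against D-3, 12 members were higher with an adjusted p below 0.05 (6.1% of all 20682 genes tested) and 1, ACSS2, was lower (8.56%; log2 fold change -0.66 ± 0.18, adjusted p = 0.043). The DEGs were FASN (1.5 ± 0.26, adjusted p = 0.0129), SCD (1.36 ± 0.31, 0.0272), ACACA (1.18 ± 0.17, 0.00833) and LSS (1.05 ± 0.18, 0.0129), all higher (1.98%). LSS, which cyclises squalene epoxide to lanosterol, was 11.8, 10.9 and 13.5 FPKM in DP-3 and 6.44, 8.05 and 5.93 in D-3, without overlap. ACAT2, MVK, SQLE, LBR, NSDHL, ACLY, FADS2 and ELOVL6 rose by less than 2-fold. The median change was 0.57, against -0.05 over all genes. Without D-3 replicate 1 or 3 the count of DEGs was 1, without DP-3 replicate 3 it was 2, and without D-3 replicate 2 it was 7, and ACACA alone kept its call in all 6 fits. In limma on log2(FPKM + 1) FASN was the 1 of the 4 that kept its call. Of the proliferation markers 2 of 8 were higher in DP-3, with a summed FPKM of 292 to 374. The 2 comparisons share the D-3 libraries.

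Within printed tissue, all members differed by less than 2-fold between 14 days and day 1. The day 1 libraries stood apart in the number of genes with a count, so time and a difference between library sets cannot be told apart. In DP-3 against DP-3 day 1 no member was a DEG (7.56% of all 20774 genes were DEGs, 1.81% higher and 5.76% lower), in edgeR's or DESeq2's test. With an adjusted p below 0.05 and no fold minimum, ACAT2, LBR, NSDHL, ACLY, ELOVL6 and ACACA were higher at 14 days (12.2%) and none was lower (9.91%), and at an unadjusted p below 0.05 there were 10 and 4. ACAT2 (ENSG00000120437, chromosome 6, 159762045 to 159779112), a thiolase at the entry to the mevalonate pathway, was 15.8, 20.6 and 19.9 FPKM in DP-3 and 12.2, 13.2 and 12.8 in DP-3 day 1. It was 16.9, 19.3 and 17.5 in D-2, 9.97, 13.8 and 10.3 in D-3, 17.5, 24.7 and 7.22 in IT, and 9.59, 17.8 and 9.24 in FIT. DP-3 did not overlap DP-3 day 1, and the log2 fold change was 0.83 ± 0.13 (adjusted p = 0.00611). ACAT2 overlaps TCP1 on the other strand. ELOVL6 rose by 0.72 ± 0.14 (adjusted p = 0.0118). On the FPKM scale 5 members lay wholly above day 1 (9.96% of all genes) and 8 wholly below (35.2%). The median change of the members was 0.20 on the count scale, and of all genes -0.06 on that scale and -0.29 on the FPKM scale. Of the proliferation markers 6 of 8 were higher at 14 days, and their part was not tested.

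**Figure D4:**
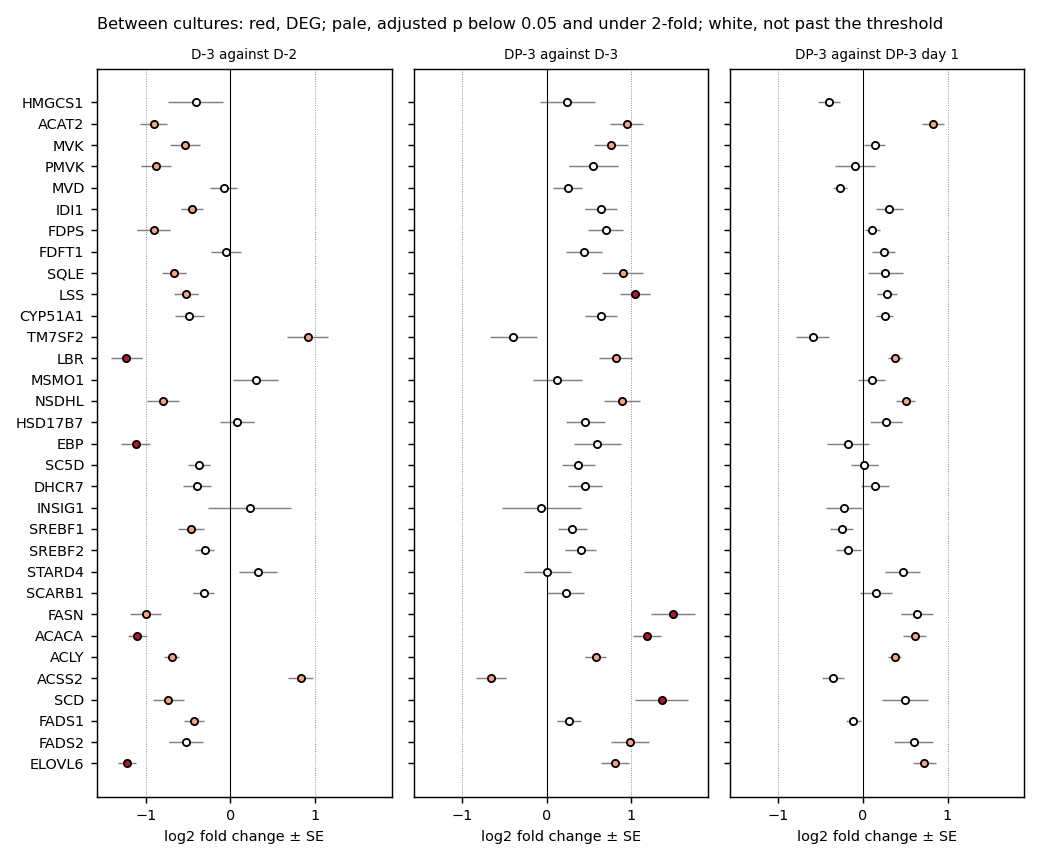
Log2 fold change with its SE (edgeR) for the 32 members in 3 comparisons between cultures; dotted lines mark 2-fold. Most members lie left of 0 in D-3 against D-2 and right of 0 in DP-3 against D-3, with TM7SF2 and ACSS2 on the other side in both, and changes between the days stay below 2-fold.

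Some members passed in no comparison when each pair of groups was fitted alone. MVD, CYP51A1, FDFT1 and HMGCS1, all enzymes of the sterol route, passed in none of these 8 comparisons, nor did INSIG1, SREBF2, STARD4, HSD17B7 and MSMO1. The change from FIT was positive in 5 of 5 comparisons for MVD, CYP51A1 and FDFT1 and in 3 for HMGCS1. On the log2 scale it was 0.67 to 1.29 for CYP51A1, 0.53 to 1.22 for FDFT1, 0.07 to 0.90 for MVD and -0.24 to 1.07 for HMGCS1. CYP51A1, which removes a methyl group from lanosterol, was 7.36, 9.46 and 1.02 FPKM in FIT and 7.40 to 16.6 in the cultures, so that its change from FIT had an SE of 0.63 to 0.69 on the log2 scale. PMVK, a kinase after mevalonate, was 6.67 FPKM in IT replicate 3 and 9.25 to 22.0 in the other libraries. Genes that overlap an expressed gene also include MVK (MMAB), DHCR7 (AP002387), and FADS1 and FADS2, which overlap each other.

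Neighbouring pathways were read from lists that share no gene with the members. Of all genes tested against FIT, 16% were higher in D-2, 5.5% in DP-3 day 1, 4.21% in DP-3 and 5.11% in D-3 with an adjusted p below 0.05, the threshold used for these lists, and 14.9%, 4.63%, 4.19% and 3.17% were lower. Of 9 genes of other isoprenoid branches, 3 were higher in D-2 and 2 in DP-3 than in FIT, and none passed in D-3 or DP-3 day 1. Of the same 9 genes, 5 were lower in D-3 than in D-2 (16.3% of all genes) and none was higher, 3 were higher in DP-3 than in D-3 (6.1%), and 4 were higher in DP-3 than in DP-3 day 1 (12.2%). Of 16 genes of other fatty acid elongation, desaturation and activation, 9 were higher in D-2, 6 in DP-3 day 1, 3 in DP-3 and 3 in D-3 than in FIT, and none was lower. ACACB, the carboxylase at the mitochondrion, was a DEG in 3 of these but stayed at or below 0.325 FPKM in every library. Of 7 genes of cholesterol storage and release, 1 was higher in D-2, 4 in DP-3 day 1, 3 in DP-3 and 2 in D-3 than in FIT. Of 6 tested genes of LXR and cholesterol export, 1 was higher and 1 lower in D-2. None of them passed in D-3, 1 was lower in DP-3 and 1 was higher in DP-3 day 1. That list holds targets of LXR, the receptors that respond to sterol excess, and also NR1H2 and NR1H3, the receptors themselves. Of 10 tested genes of fatty acid oxidation, 2 were higher and 2 lower in D-2, and 1 each was higher in D-3 and DP-3 day 1. Of 6 genes of glyceride synthesis and lipid droplets, 2 were higher and 1 lower in D-2, 2 were higher in DP-3 and also in DP-3 day 1, and 1 in D-3. No gene of these lists passed in IT, where 0% of all 21183 genes tested passed.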

How the data were processed

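The authors filtered the reads, aligned them and reconstructed transcripts with cutadapt 1.9, HISAT2 2.0.4 and StringTie 1.3.4d (submitters' processing notes). The genome build, annotation and counting strand are not given in the sources used here. All 32 members overlapped their genes in GENCODE 29 on GRCh38, and positions are on that build. The deposited FPKM were computed by the authors with StringTie. The deposited estimated counts are whole numbers that follow coverage, since 32.4% of 277678 counts below 200 were multiples of 4. They are not counts of read pairs, so no counting interval is given. No column with values per sample was left unused (0).

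Members and lists were chosen with earlier results of these data known. edgeR 4.0.16 (TMM, estimateDisp, glmQLFit with legacy settings, glmQLFTest, R 4.3.3) was fitted for each comparison to its own 6 libraries, on genes with at least 0.1 FPKM in at least 3, and for the 6 groups to all 18. The Benjamini-Hochberg adjustment covered all genes tested. The thresholds are those the authors used with DESeq2. Values per library were given for SREBF1, SREBF2 and INSIG1, for the 10 members with the smallest p among the groups, and in each comparison for the 2 higher and 2 lower member DEGs with the largest change or, with none, the 2 smallest p. Values of other members were added after they were seen. Genes of other lists were named if DEGs in at least 3 comparisons with FIT in 1 direction, at most 4 a list, and SCAP and INSIG2 always. The planned rule printed promoters of those 10 members with TCACNCCAC, of which there were none. Alternatives were median-of-ratios scaling, an FPKM minimum of 1, no filter, DESeq2 1.42.0, limma 3.58.1 on log2(FPKM + 0.1) and log2(FPKM + 1), one fit of 18 libraries, a replicate block, no fold minimum, and each library left out. Fits of 18 libraries without IT or FIT replicate 3 and a test without day 1 were added after seeing the data. The code was tested on simulated counts.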

Additional observations from a re-analysis of the deposited data

Results flagged for a closer look

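Members whose change from FIT differed between 2 cultures by a test of the difference itself (edgeR, adjusted p below 0.05 and at least 2-fold) were picked out. In D-3 against D-2 they were LBR (-1.23 on the log2 scale), EBP (-1.12), ELOVL6 (-1.22) and ACACA (-1.10). In DP-3 against D-3 they were LSS (1.05), SCD (1.36), FASN (1.5) and ACACA (1.18). The call of SCD in DP-3 against D-3 was lost in 5 of the 6 fits that left out 1 library, that of LSS in 3 and that of FASN in 2.

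In 2 members the groups lay on opposite sides of FIT. All D-3 libraries of LSS were below all FIT libraries (log2 fold change -0.65) while all DP-3 day 1 libraries were above them, and the difference between D-3 and DP-3 day 1 was not tested. All D-3 libraries of ACACA were below all FIT libraries (-0.30) while those of D-2, DP-3 and DP-3 day 1 were above them. The difference was not tested for DP-3 day 1. Groups of 3 were too small for a test of single outlying libraries.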

How the results depend on the processing

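The count of member DEGs fell on log2(FPKM + 1) to 3 in D-2, 2 in DP-3 and 1 in D-3 against FIT, 0 in D-3 against D-2 and 1 in DP-3 against D-3, where log2(FPKM + 0.1) gave 2. Without the fold minimum it was 15 in D-2 and 5 in DP-3 day 1 against FIT, 6 in DP-3 against DP-3 day 1, 19 in D-3 against D-2 and 13 in DP-3 against D-3. DESeq2 gave 8 in DP-3, 5 in DP-3 day 1 and 8 in IT against FIT. One fit of 18 libraries gave 9 in IT, 14 without IT replicate 3 and 6 without FIT replicate 3. Without a filter, DP-3 day 1 against FIT had 5 and the test among the 6 groups 27. Leaving out each library in turn, the counts against FIT ranged from 1 to 4 in DP-3 day 1, 3 to 6 in D-2, 0 to 3 in DP-3, 0 to 2 in D-3, and 0 to 0 in IT. They ranged from 0 to 0 in DP-3 against DP-3 day 1, 4 to 8 in D-3 against D-2, 1 to 7 in DP-3 against D-3 and 13 to 29 among the groups. The cause was not tested, other than that such fits hold fewer libraries. Of 24 gene calls under the other settings run, 160 values were as called and 32 lost the call, and with a library left out 86 and 58, with 0 reversed. The FPKM scale moved the median of all genes by up to -0.23 (DP-3 against DP-3 day 1) from the count scale, and median-of-ratios scaling by under 0.1.

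Libraries share replicate numbers across groups, but their deviations from the group means correlated only between -0.06 and 0.07. These values give no clear pairing by number, and they cannot exclude it. In DP-3 day 1 against FIT 6 of 6 libraries correlated best with their own number, and in the other comparisons 1 to 5 of 6. With a replicate block the count in DP-3 against FIT was 0 in place of 5, and no other count moved by over 1.5 times. Depth limits FIT replicate 3 most.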
